A study of Mus musculus with 12 samples.

Results

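The genes described here encode OAS proteins of the mouse, the sensors of an antiviral pathway that degrades RNA. They were chosen by symbol from a list of 8 names, Oas1a, Oas1b, Oas1c, Oas1g, Oas2, Oas3, Oasl1 and Oasl2, and 7 of the 8 matched a row among the 36875 gene symbols of the deposited count table. Oas1b was not analysed here. An OAS enzyme binds double-stranded RNA and links ATP into short oligoadenylate chains called 2-5A, a second messenger that switches on RNA degradation and slows translation. The genes are known as interferon-stimulated: type I and type III interferons induce them through the ISGF3 complex, which holds Stat2 and Irf9 and binds a promoter element named ISRE. In synovial fibroblasts, as in other stromal cells, they belong to the interferon response described in arthritis.

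RNA-seq was read from 12 libraries of primary fibroblast-like synoviocytes, the connective tissue cells that line the joint, taken from mice of a study of tumour necrosis factor-induced arthritis. The resolution group (DOX OFF in the sample descriptions, 4 libraries) had 1 mg/ml doxycycline in 5% sucrose drinking water for 3 weeks and was then taken off the drug. The inflammation group (DOX ON, 4 libraries) had the same doxycycline and sucrose water for 3 weeks. The homeostasis group (called WT in the descriptions, 4 libraries) had 5% sucrose water without doxycycline for 3 weeks. Whether the homeostasis mice carry the same alleles as the other groups, what drives the transgene, the time since withdrawal, and the age, sex and passage of the cells were not stated in those labels. Nor was it stated whether the 4 libraries per group are separate animals or cultures, so a p-value measures the spread between these libraries, which may be technical.

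Library totals ran between 18120745 and 34971537 counts, so that 3 counts, the limit that a count of 0 allows, corresponded to 0.0858 to 0.166 CPM (counts of a gene scaled to the total of its library). This limit covers counting error only, while the SD and SE values given below also include the spread between libraries. Synovial fibroblast markers were abundant in every library, with summed levels of 6752 to 12152 CPM in resolution, 16545 to 18931 CPM in inflammation and 21963 to 22936 CPM in homeostasis. Macrophage markers summed to 65.4 to 74.8 CPM in resolution, 710 to 778 CPM in inflammation and 148 to 190 CPM in homeostasis, and Cx3cr1 was too low to test. Lymphocyte markers summed to at most 0.309 CPM in any library, and of 6 plasmacytoid dendritic cell markers, Siglech was at 0 throughout and Ccr9 and Ly6d were too low to test. Of the 3 tested, Bst2, which interferon also induces, averaged 393 CPM in resolution, 310 CPM in inflammation and 38.9 CPM in homeostasis, and Irf8 0.505, 1.86 and 0.284 CPM in that order of groups, while Tcf4 passed in no comparison. Chondrocyte markers summed to 51.9 to 88.5 CPM in resolution, 166 to 251 CPM in inflammation and 932 to 1186 CPM in homeostasis. In bulk RNA, fewer cells of a type and less RNA per cell cannot be told apart. The 4 tested Y-linked genes were at or near 0 in resolution and inflammation and present in homeostasis (Ddx3y averaged 0 CPM, 0.0343 CPM and 23.6 CPM), so that in both comparisons with homeostasis, treatment and the sex of the source animals cannot be told apart. Resolution and inflammation did not differ in this way.

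All 7 genes lie on chromosome 5 of the GRCm38 build, in the GENCODE M21 annotation, and all are protein-coding. Oasl2 (chr5:114896936-114912234) and Oasl1 (chr5:114923240-114937915) stand next to each other on the plus strand. Oas2 (chr5:120730333-120749853), Oas3 (chr5:120753098-120777661), Oas1c (chr5:120800194-120812514), Oas1g (chr5:120876142-120887613) and Oas1a (chr5:120896256-120907521) form a second block on the minus strand.

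The sequence before each start site was read because the genes moved together, and RefSeq (GRCm38.p6) held a window of 250 bases before to 50 bases after the start for 6 of the 8 names. The windows were searched on both strands for the ISRE core GAAANNGAAA, for the GAS element TTCNNNGAA, and for the NF-kB consensus. The ISRE core stood in 4 of the 6 windows, those of Oas1a, Oas1g, Oas1c and Oas3, and 3.44% of all 32851 windows in the table held it. The 150 bases before each of these 4 starts are shown 5′ to 3′ on the strand of the gene, with the ISRE matches in capitals.
Oas1a: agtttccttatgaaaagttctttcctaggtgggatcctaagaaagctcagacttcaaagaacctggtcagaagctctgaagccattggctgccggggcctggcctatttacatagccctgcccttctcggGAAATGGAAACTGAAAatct
Oas1g: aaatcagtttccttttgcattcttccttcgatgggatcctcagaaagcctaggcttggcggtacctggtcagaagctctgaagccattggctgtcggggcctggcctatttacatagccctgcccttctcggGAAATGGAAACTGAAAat
Oas1c: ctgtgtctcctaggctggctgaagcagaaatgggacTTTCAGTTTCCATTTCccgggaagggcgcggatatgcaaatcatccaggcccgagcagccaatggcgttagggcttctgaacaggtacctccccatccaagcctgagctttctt
Oas3: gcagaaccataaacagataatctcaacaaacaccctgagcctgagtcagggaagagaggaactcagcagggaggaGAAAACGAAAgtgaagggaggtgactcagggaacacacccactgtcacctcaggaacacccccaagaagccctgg
These stretches are chr5:120907526-120907675 for Oas1a, chr5:120887614-120887763 for Oas1g, chr5:120812515-120812664 for Oas1c and chr5:120777660-120777809 for Oas3, each read on the minus strand.
In Oas1a and Oas1g the capitals hold 2 ISRE matches that overlap by 4 bases, in the same 16 letters, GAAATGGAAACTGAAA. In Oas1c the same 16 letters stand on the opposite strand and farther from the start. The Oas1a and Oas1g stretches share an identical run of 56 bases. With each stretch read only on the strand of its gene, no other pair of the 6 shared a run longer than 9 bases. No ISRE core was in the windows of Oasl1 or Oasl2, although all 6 windows held a match with at most 1 base changed, as did 35.4% of all windows. The GAS element was in 1 of the 6 windows (Oas1a; 8.3% of all windows) and the NF-kB consensus in 1 (Oasl1; 4.51% of all windows). A match describes letters in a window, not binding.

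Every one of the 7 genes was higher after doxycycline than in homeostasis, and every one had its highest group mean in resolution, after the drug was stopped. Values below are CPM normalized by TMM, a scaling between libraries, and are given for libraries 1 to 4 of each group.

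Oas1a, an active 2-5A synthetase in the mouse, stood at 80.4, 83.2, 49.6 and 65.7 CPM in resolution, at 38.3, 39.5, 40.0 and 33.1 CPM in inflammation, and at 0.609, 0.831, 3.08 and 5.48 CPM in homeostasis. The groups did not overlap. Oas1g, its near-identical neighbour and also an active enzyme, had 28.6, 33.3, 21.6 and 25.4 CPM in resolution, 13.8, 11.2, 10.2 and 10.7 CPM in inflammation, and 0.305, 0.277, 1.08 and 1.90 CPM in homeostasis. Its groups did not overlap either. Of the 150-base windows along their transcripts, 32.4% of those of Oas1a and 30.1% of those of Oas1g occur in the other gene. Of the 50-base windows, 57.6% of those of Oas1a and 54.7% of those of Oas1g occur in another OAS gene, Oas1b among them. The division of reads between Oas1a and Oas1g is therefore uncertain. With the Oas1 genes summed, the log2 fold change was 4.30 for resolution against homeostasis, 3.35 for inflammation against homeostasis and 0.94 for resolution against inflammation (adjusted p = 5.32e-08, 1.51e-06 and 0.0483, edgeR).

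Oas1c, another gene of the Oas1 cluster, had the narrowest range. It had 8.19, 7.05, 5.45 and 5.08 CPM in resolution, 5.21, 4.79, 4.26 and 3.89 CPM in inflammation, and 1.37, 1.11, 2.28 and 2.72 CPM in homeostasis. Resolution and inflammation overlapped, and homeostasis lay below both. The remaining Oas1 genes of the table were too low to test: summed over 4 libraries, Oas1d, which in the mouse ovary restrains Oas1a, had 9 counts in resolution, 2 in inflammation and 0 in homeostasis. Oas1e had 2, 0 and 0 counts in the same order of groups, Oas1f had 2, 3 and 1, and Oas1h had 5 in each.

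Oas2, which carries the OAS unit in tandem and makes 2-5A, had 23.3, 28.9, 24.9 and 26.3 CPM in resolution, 4.02, 3.28, 3.87 and 4.29 CPM in inflammation, and 0, 0.277, 0.342 and 0.997 CPM in homeostasis. Its groups did not overlap, with 23.3 CPM in the lowest resolution library against 4.29 CPM in the highest inflammation library. Oas3, the longest of the enzymes and in human cells the main source of 2-5A, had 4.84, 9.20, 5.54 and 6.56 CPM in resolution, 4.16, 3.89, 5.39 and 5.57 CPM in inflammation, and 0, 0.185, 0.570 and 0.725 CPM in homeostasis. For Oas3 the resolution and inflammation libraries overlapped, and every homeostasis library was below 1 CPM.

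Oasl2, a mouse OAS-like protein with ubiquitin-like domains that still makes 2-5A, was the most abundant member by CPM in every library. It had 126, 159, 132 and 134 CPM in resolution, 80.9, 80.2, 89.7 and 101 CPM in inflammation, and 3.60, 5.45, 15.7 and 22.7 CPM in homeostasis. Oasl1, which has no synthetase activity and in mice restrains translation of the Irf7 mRNA, had 15.9, 21.4, 13.2 and 15.0 CPM in resolution, 11.6, 7.90, 9.75 and 10.7 CPM in inflammation, and 1.12, 2.28, 4.27 and 5.89 CPM in homeostasis. Neither gene had overlapping groups.

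**Figure D1:**
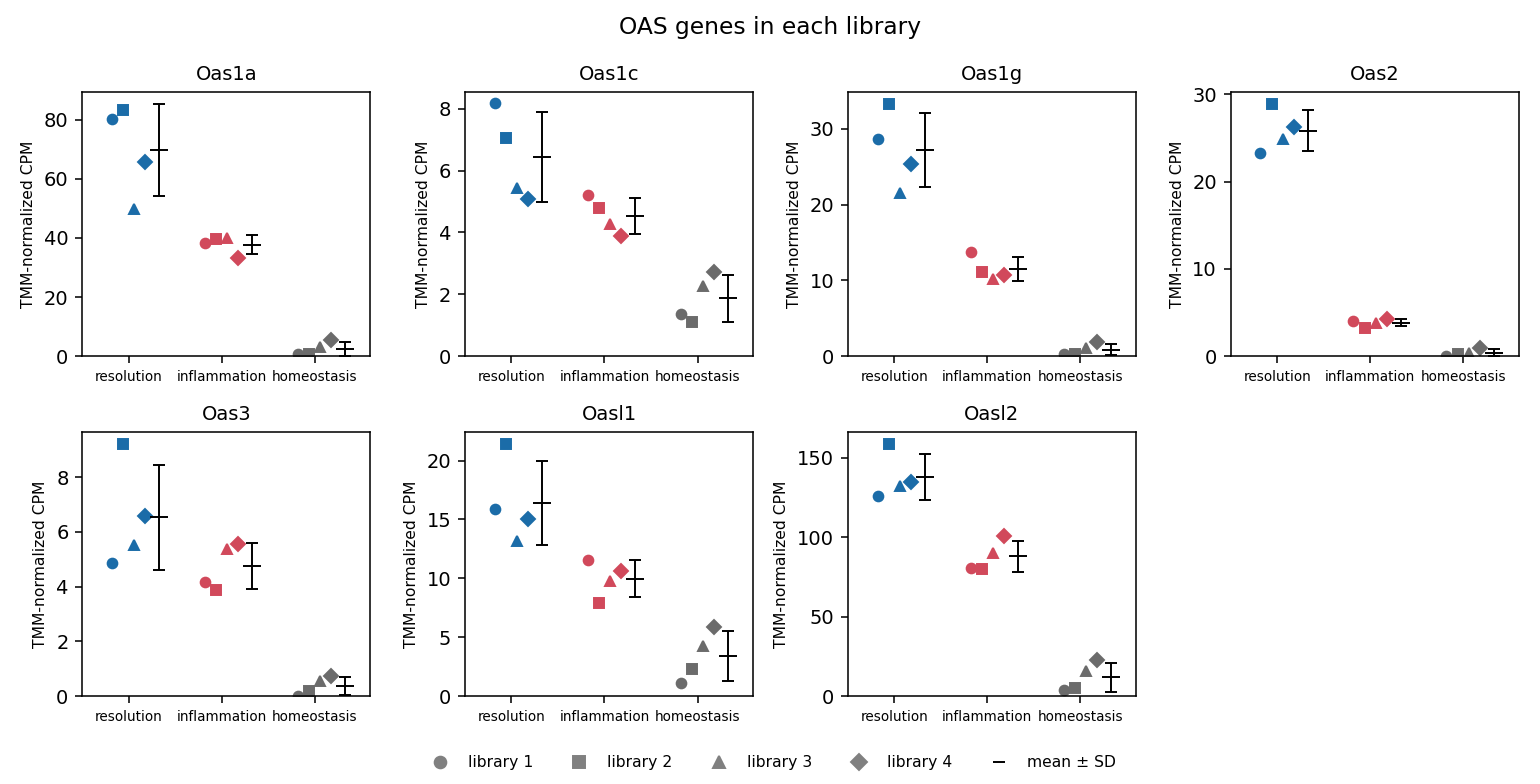
TMM-normalized CPM (vertical axis, a separate scale for each gene) of the 7 OAS genes in resolution, inflammation and homeostasis. Points are single libraries, with the marker shape giving the library number, and bars are the mean ± SD of 4 libraries; Oas2 stands at 23.3 to 28.9 CPM in resolution against 3.28 to 4.29 CPM in inflammation, while the Oas3 libraries of these groups overlap.

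Resolution against homeostasis asked how far these genes stood from the untreated state after doxycycline had been stopped. All 7 passed the test and were higher, with every resolution library above every homeostasis library, where 27.5% of the 15049 genes tested were called higher (25.8% lower) and 21.9% had libraries separated in the higher direction. Oas2 averaged 25.8 ± 2.36 CPM in resolution and 0.404 ± 0.422 CPM in homeostasis (SD, n = 4 each), a log2 fold change of 5.98 ± 0.37 (SE), which ranked 4 among all genes tested (edgeR quasi-likelihood test, Benjamini-Hochberg adjusted p = 1.52e-10). Oas1g followed at 4.98 ± 0.37 (adjusted p = 1.64e-09, edgeR), then Oas1a at 4.83 ± 0.50, Oas3 at 4.18 ± 0.43 and Oasl2 at 3.55 ± 0.45. The smallest were Oasl1 at 2.28 ± 0.32 and Oas1c at 1.80 ± 0.26 (adjusted p = 6.70e-06 and 1.10e-05, edgeR). The median over the 7 genes was 4.18, against -0.01 over all genes tested. In the same comparison 8 of 12 synovial fibroblast markers were lower and 2 higher (median log2 fold change -1.04). Of the macrophage and chondrocyte markers tested, 13 of 18 and 5 of 6 were lower and none was higher. The part of these cell types in the OAS values was not tested.

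Inflammation against homeostasis set doxycycline against its absence. All 7 were again higher with no overlap between libraries, where 19% of genes were called higher (18.3% lower) and 18.1% were separated. Oas1a averaged 37.7 ± 3.18 CPM in inflammation and 2.50 ± 2.28 CPM in homeostasis (SD, n = 4 each), a log2 fold change of 3.94 ± 0.48 (SE; adjusted p = 3.35e-05, edgeR). Oas1g (3.73 ± 0.36), Oas3 (3.72 ± 0.43), Oas2 (3.24 ± 0.39) and Oasl2 (2.90 ± 0.44) had log2 fold changes between 2.90 and 3.73. Oasl1 and Oas1c were again the smallest, at 1.56 ± 0.31 and 1.30 ± 0.26 (adjusted p = 0.000675 and 0.000688, edgeR). The median of the 7 was 3.24, against -0.01 over all genes. Macrophage markers were higher as well, 17 of 18 tested (median 1.52), and 4 of 6 chondrocyte markers were lower and none higher. Of 12 synovial fibroblast markers, 6 were lower and 2 higher (median -0.40). The part of these cell types in the OAS values was not tested here either. Both comparisons use the same homeostasis libraries.

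Resolution against inflammation set the libraries after withdrawal against those on doxycycline. Oas2 and Oas1g passed the test, 2 of 7 and both higher, and none was lower, where 8.52% of all genes were called higher and 7.64% lower. Oas2 averaged 25.8 ± 2.36 CPM in resolution and 3.86 ± 0.428 CPM in inflammation (SD, n = 4 each), a log2 fold change of 2.74 ± 0.29 (SE; adjusted p = 1.54e-06, edgeR) that ranked 19 among all genes. Oas1g averaged 27.2 ± 4.94 CPM in resolution and 11.5 ± 1.57 CPM in inflammation, a log2 fold change of 1.25 ± 0.29 (adjusted p = 0.00573, edgeR). The other log2 fold changes were 0.89 ± 0.40 for Oas1a, 0.72 ± 0.29 for Oasl1, 0.65 ± 0.41 for Oasl2, 0.50 ± 0.24 for Oas1c and 0.46 ± 0.32 for Oas3 (adjusted p = 0.151, 0.0993, 0.292, 0.159 and 0.329, edgeR). Oas1a, Oasl1 and Oasl2 were nonetheless above every inflammation library in every resolution library, as were Oas2 and Oas1g, 5 of 7 where 8.94% of all genes were separated that way. The SE and p-values of the main fit draw on all 12 libraries, so the spread within homeostasis enters them too. The count changed with the fit, and so did the number of all genes called higher. With only the resolution and inflammation libraries fitted, 5 of 7 passed (Oas1a, Oasl1 and Oasl2 at adjusted p = 0.000634, 0.00884 and 0.00149, edgeR), where 1623 of 14739 genes were higher. Over all 12 libraries without a filter on low counts 5 also passed, where 1635 of 27140 genes were higher. With only these 2 groups fitted and the replicate number as a block, 6 of 7 passed, where 2585 of 14739 genes were higher. Oas3 did not pass there (log2 fold change 0.43 ± 0.20, adjusted p = 0.0984, edgeR). The median of the 7 was 0.72, against 0.02 over all genes. Macrophage markers went the other way, with 17 of 18 tested called lower in resolution than in inflammation. Of 12 synovial fibroblast markers, 4 were lower and 2 higher.

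**Figure D2:**
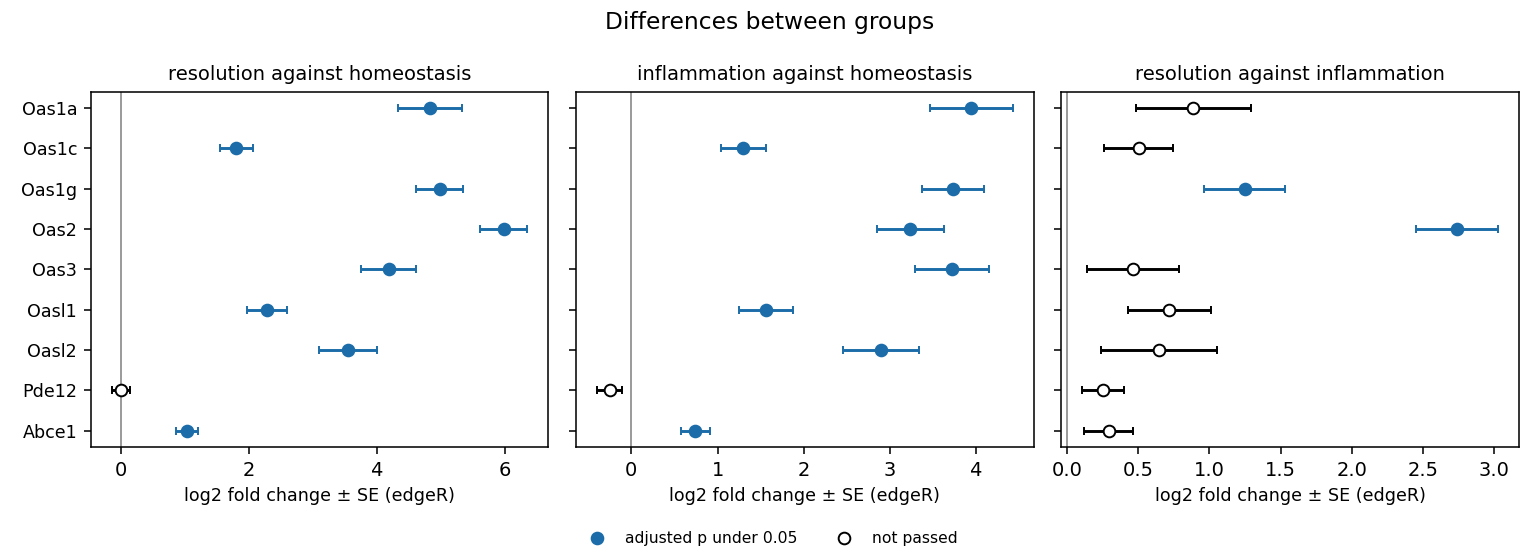
log2 fold change ± SE from edgeR (horizontal axis, a separate scale in each panel) for the 7 OAS genes, Pde12 and Abce1 (vertical axis) in the 3 comparisons. Filled points passed at an adjusted p under 0.05 and open points did not; all 7 OAS genes are filled in both comparisons with homeostasis, and Oas2 at 2.74 and Oas1g at 1.25 in resolution against inflammation.

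The make-up of the OAS reads differed between groups. Oas2 supplied a mean of 8.97% of the summed CPM of the 7 genes in resolution, 2.41% in inflammation and 1.60% in homeostasis. The share of Oasl2 was 47.7%, 54.8% and 54.4% in resolution, inflammation and homeostasis, and that of Oas1a 23.9%, 23.6% and 10.4%. Oasl1 and Oas1c held larger shares in homeostasis (17.0% and 11.3%) than in resolution (5.61% and 2.23%) or inflammation (6.21% and 2.85%). The 7 genes summed to 252 to 342 CPM in resolution, 151 to 169 CPM in inflammation and 7.01 to 40.4 CPM in homeostasis.

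The ratios of members within a library were compared between resolution and inflammation after the values had been seen. Over 21 pairs of members, each on log2(CPM + 0.5), 4 libraries against 4 allow no exact two-sided permutation p below 0.0286. Every ratio at 0.0286 had an adjusted p of 0.0667 over the 21 pairs in this permutation test, and none was lower. No ratio therefore passed the threshold on adjusted p that was used in the main fit. The permutation test sets the replicate numbers aside. Within the 4 same-numbered pairs, an exact sign-flip test, added after the data had been seen, allows no p below 0.125. The labels do not say whether same-numbered libraries belong together. All 6 ratios that hold Oas2 reached both limits, with the same direction in 4 of 4 pairs. The log2 ratio of Oas2 to Oasl2 lay between -2.44 and -2.33 in resolution and between -4.42 and -4.17 in inflammation, a difference of 1.95. The difference was 2.20 for Oas2 over Oas3 and 1.91 for Oas2 over Oasl1. Of the 15 other ratios, 3 reached p = 0.0286 in the exact permutation test over all 8 libraries. The differences were 0.80 for Oas1g over Oas3, 0.52 for Oas1g over Oasl1 and -0.76 for Oas1c over Oas1g. All 3 hold Oas1g, and the division of reads between Oas1g and Oas1a is uncertain. The log2 ratio of Oasl1 to Oasl2 differed by 0.04 between the groups and did not reach that p.

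**Figure D3:**
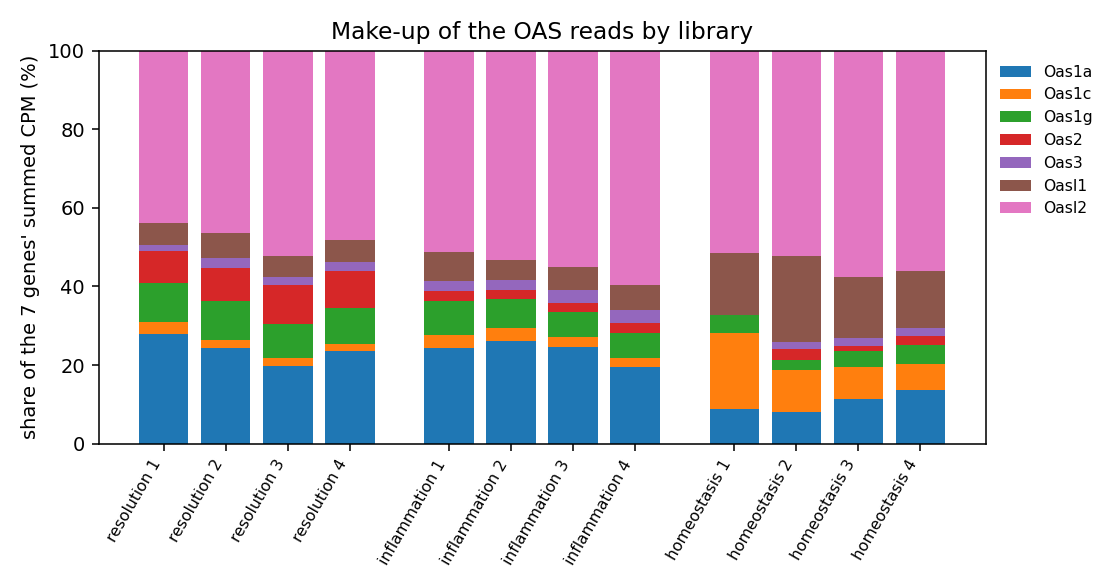
Share of each OAS gene in the summed CPM of the 7 genes (vertical axis, percent) in each of the 12 libraries. Oas2 averages 8.97% in resolution, 2.41% in inflammation and 1.60% in homeostasis, while Oasl2 is the largest share in every library.

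Per kilobase of the longest annotated transcript, the levels in resolution ran Oasl2 (44.1 CPM per kilobase), Oas1a (37.0), Oas1g (13.8), Oasl1 (7.52), Oas2 (6.52), Oas1c (2.81) and Oas3 (1.38). Oasl2 and Oas1a overlapped between libraries there, as did Oasl1 and Oas2, while the other neighbours in the order did not. In inflammation Oas2, at 0.975 CPM per kilobase, was the lowest and overlapped with Oas3 at 1.01. Oas1g and Oasl1, at 5.80 and 4.57 CPM per kilobase, overlapped too, below Oasl2 at 28.2 and Oas1a at 20.0 and above Oas1c at 1.98. In homeostasis every pair of neighbours in the order overlapped, between Oasl2 at 3.80 and Oas3 at 0.0784 CPM per kilobase. This order depends on the length used. With the length of all exons of a gene in place of its longest transcript, Oas1a ranked above Oasl2 in resolution and inflammation and above Oasl1 in homeostasis, and in inflammation Oas3 was lowest, at 0.672 CPM per kilobase, overlapping with Oas2 at 0.868.

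Spread was largest in homeostasis, where the coefficient of variation of the 7 genes was 40.5% to 104.5%, against 9.12% to 29.2% in resolution and 8.44% to 17.9% in inflammation. Homeostasis library 4 was the highest of its group for 7 of 7 genes, where 31% of all tested genes were, and libraries 3 and 4 were both above libraries 1 and 2 for 7 of 7, where 28.9% of all tested genes were. The mean of libraries 3 and 4 was between 2.02 (Oas1c) and 7.01 (Oas3) times that of libraries 1 and 2. Double-stranded RNA sensors showed the same order in 7 of 8 tested genes, and macrophage markers in 4 of 18. What sets these libraries apart was not tested. The size of each fold change against homeostasis rests on them: without libraries 1 and 2, the log2 fold change of Oas1a was 4.02 in resolution and 3.15 in inflammation, and without libraries 3 and 4 it was 6.54 and 5.66. All 7 genes passed in both comparisons in each of these fits.

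In resolution, library 2 was the highest for 6 of the 7 genes, and library 1 for Oas1c, where 34.7% of all tested genes were highest in library 2 and 35.2% lowest. Of the 8 double-stranded RNA sensors, 4 were highest and 4 lowest there.

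Abce1, which recycles ribosomes, averaged 118 CPM in resolution, 96.6 CPM in inflammation and 57.8 CPM in homeostasis. Its log2 fold change was 1.03 ± 0.17 for resolution and 0.74 ± 0.17 for inflammation, both against homeostasis (adjusted p = 5.60e-05 and 0.00225, edgeR). Allowing for GC content and transcript length, the resolution value was 0.34 (adjusted p = 0.0499) and the inflammation value 0.33, which did not pass (adjusted p = 0.0604). Pde12, a phosphodiesterase that degrades 2-5A, averaged 23.8 CPM in resolution, 20.0 CPM in inflammation and 23.8 CPM in homeostasis and passed in none of the 3 comparisons. With the GC and length correction, Pde12 fell by 0.80 in resolution and by 0.77 in inflammation against homeostasis on the log2 scale (adjusted p = 0.000118 and 0.000268, edgeR).

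Other sensors of double-stranded RNA were described from a list of 8. In resolution and in inflammation, 7 of the 8 were higher than in homeostasis and none was lower, and Mavs, the adaptor of the RIG-I-like receptors, did not pass in either. Over all genes tested, 27.5% were higher in resolution and 19% in inflammation. Ifih1, which encodes the sensor MDA5, averaged 81.7 CPM in resolution, 39.6 CPM in inflammation and 7.90 CPM in homeostasis, with log2 fold changes of 3.38 ± 0.24 and 2.34 ± 0.23 against homeostasis. Eif2ak2, which encodes the kinase PKR, had 2.70 ± 0.20 and 1.96 ± 0.20, and Tlr3, the endosomal receptor, had 2.26 ± 0.20 and 1.70 ± 0.20. Between resolution and inflammation 4 of the 8 were higher, where 8.52% of all genes were. Ifih1 at 1.04 ± 0.21 and Eif2ak2 at 0.74 ± 0.19 led them (adjusted p = 0.00226 and 0.0126, edgeR). Tlr3 at 0.56 and Ddx58, which encodes RIG-I, at 0.49 were close to the threshold (adjusted p = 0.0451 and 0.0480, edgeR). The count of 4 was 2 or fewer after leaving out any of resolution library 1, 3 or 4, inflammation library 1, 2 or 3 or homeostasis library 3, and with upper-quartile scaling. All genes called higher in those fits ran from 482 of 15297 (without resolution library 4) to 1185 of 15364 (without homeostasis library 3).

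The genes that carry the interferon signal had log2 fold changes of at most 1.84 against homeostasis. Of 6 receptor and ISGF3 genes, 4 were higher and 1 lower in resolution, and 2 were higher and none lower in inflammation, each against homeostasis. Over all genes tested, 27.5% were higher and 25.8% lower in resolution, and 19% higher and 18.3% lower in inflammation. Stat2 averaged 102 CPM in resolution, 95.4 CPM in inflammation and 28.7 CPM in homeostasis, with log2 fold changes of 1.84 ± 0.19 and 1.74 ± 0.19 against homeostasis. Irf9 had 1.13 ± 0.22 and 1.01 ± 0.22. Jak1, a kinase of the interferon receptors, was the 1 gene of the list that was higher in resolution than in inflammation (0.67 ± 0.17, adjusted p = 0.0132, edgeR), a call that ended without resolution library 3 or 4 or inflammation library 1 or 2. The 1 lower gene was Ifnar1, a receptor chain, at -0.39 ± 0.16 in resolution against homeostasis (adjusted p = 0.0477, edgeR). That call ended with RLE or upper-quartile scaling, and without any 1 library other than inflammation 4 or homeostasis 4.

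Of 6 interferon-induced regulators, 3 were higher in resolution and 4 higher and 1 lower in inflammation, against homeostasis. The shares over all genes were 27.5% higher in resolution, and 19% higher and 18.3% lower in inflammation. Irf7, the transcription factor whose mRNA Oasl1 restrains, averaged 295 CPM in resolution, 103 CPM in inflammation and 15.9 CPM in homeostasis, with log2 fold changes of 4.22 ± 0.67 and 2.69 ± 0.63 against homeostasis. Every resolution library was above every inflammation library for Irf7, but that difference of 1.52 ± 0.60 did not pass (adjusted p = 0.112, edgeR). Usp18, a brake on the interferon receptor, had 3.95 ± 0.59 and 3.83 ± 0.59 against homeostasis, and Isg15, a ubiquitin-like modifier, had 3.22 ± 0.58 and 2.85 ± 0.57. Irf1 was the lower gene in inflammation, at -0.50 ± 0.14, and the call did not hold without homeostasis libraries 3 and 4. Irf8 was lower in resolution than in inflammation (0.505 CPM against 1.86 CPM), as macrophage markers were.

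Interferon genes themselves were near or at 0 in these libraries: none of 14 could be tested. Ifnb1, which encodes interferon beta, had 7 counts over the 4 resolution libraries, 13 over the 4 inflammation libraries and 0 over the 4 homeostasis libraries. At this depth a difference in interferon transcripts was not detectable by the test.

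**Figure D4:**
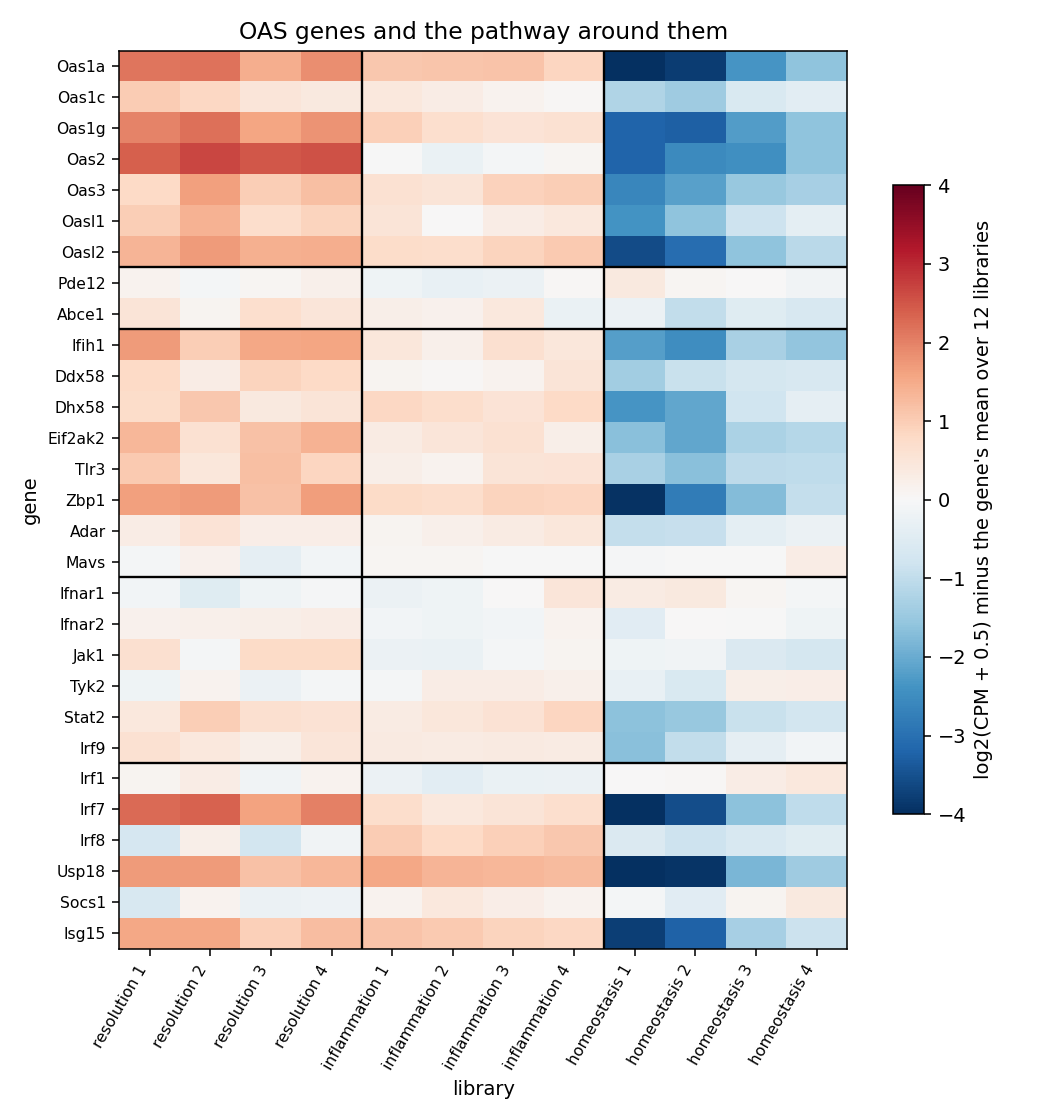
Difference of log2(CPM + 0.5) from each gene's mean over the 12 libraries (colour; red above the mean, blue below it) for genes (rows) in each library (columns). Horizontal lines separate the OAS genes, Pde12 and Abce1, the double-stranded RNA sensors, the receptor and ISGF3 genes and the interferon-induced regulators; the 7 OAS rows are bluest in homeostasis libraries 1 and 2, and Oas2 is reddest in resolution.

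The genes whose pattern over the 12 libraries was most like each member were found by Pearson's r of log2 CPM, given as a description: the libraries share the 3 groups, so that r is high for any genes with the same group order. The nearest to Oas1a were Apol9a (r = 0.996), Apol9b (0.995) and Oas1g (0.994). The nearest to Oas1g were Oas1a, Irgm1 (0.991) and Ifit1 (0.991). The nearest to Oasl2 were Rtp4 (0.997), Igtp (0.996) and Ifi44 (0.995), and for Oasl1 they were Irf7 (0.990), Zbp1 (0.984) and Hist2h2aa1. Oas3 was most like F11r (0.993), Oasl2 (0.991) and Rtp4. Oas2 was most like Tgtp2 (0.986), Lgi2 and Itm2b, and Oas1c was most like Dcxr (0.993), Pink1 and Abhd4.

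The genes beside the clusters were read against the shares over all genes. These were 27.5% higher and 25.8% lower in resolution against homeostasis, and 19% higher and 18.3% lower in inflammation against homeostasis. In resolution against inflammation they were 8.52% higher and 7.64% lower. Of the 8 nearest tested neighbours, 2 on each side of the Oasl pair and of the Oas1-Oas2-Oas3 block, none passed in resolution against inflammation. Rph3a, beside the second block, was higher against homeostasis in resolution (1.17) and inflammation (1.32; adjusted p = 0.00916 and 0.00597, edgeR). Ankrd13a and Ddx54 were lower in resolution against homeostasis (-0.55 and -0.36; adjusted p = 0.00113 and 0.0388, edgeR). The other 5, 1500011B03Rik, 2210016L21Rik, Sppl3, Rita1 and Ptpn11, passed in no comparison.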

How the data were processed

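RNA-seq libraries of mouse fibroblast-like synoviocytes were analysed, 4 in each of 3 groups. The authors deposited 1 table of expected counts per gene, in which 1.43% of values were not whole, and the submitters' processing notes name GRCm38.p3 as the build. The aligner, counter and strand setting were not given in the sources used here. Counts were rounded to whole numbers. The 76 rows that share a symbol were summed and 13 rows without values dropped, leaving 36875 symbols.

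Genes that passed edgeR's filter on low counts (15049) were fitted together over all 12 libraries by the quasi-likelihood test (edgeR 4.0.16, R 4.3.3), with TMM scaling and no block. P-values were adjusted over all genes tested (Benjamini-Hochberg) at 0.05. The biological coefficient of variation was 18.6%. A check on simulated counts gave every gene the same spread. It required recovery of the larger planted changes and a limit on false calls, and set no requirement for the smaller planted changes. It does not show how the test performs for genes as variable as the OAS genes in homeostasis. Alternatives used limma 3.58.1 (voom), DESeq2 1.42.0, other scalings, no filter, fewer libraries and a correction for GC content and length. Promoter windows came from RefSeq. Genes in each list were named by smallest adjusted p, at most 3 per list and comparison, beside genes chosen by name. The GC and length correction, the exon-union length and the block on 2 groups were added after the data had been seen.

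Replicate numbers come from the titles. Deviations from group means of same-numbered libraries correlated at 0.126 to 0.214 between resolution and inflammation. Differently numbered libraries were not compared, so these values do not show that the numbers pair libraries. Between resolution and homeostasis r was -0.228 to -0.00275, and between inflammation and homeostasis -0.213 to 0.0802. The replicate block and the sign-flip test take the numbers as pairs, and the main fit does not. The members and lists were chosen with earlier results of these data known. Some genes of the pathway are not reported here.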

Additional observations from a re-analysis of the deposited data

How the results depend on the processing

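Against homeostasis, all 7 OAS genes remained called higher in resolution and in inflammation under every alternative run (5 of 5 with the Oas1 genes summed). For resolution against inflammation, the 2 calls became 5 without a filter on low counts, 5 with only these groups fitted, 5 without homeostasis libraries 1 and 2, 5 without homeostasis libraries 3 and 4, and 6 with a replicate block in the fit of these groups alone. Leaving out 1 library at a time gave 2 to 4. The 4 arose without homeostasis library 1 or 4, where 1220 of 15370 and 1418 of 15328 of all genes were higher. Over the fits without 1 library, all genes called higher ran from 482 of 15297 (without resolution library 4) to 2360 of 15332 (without resolution library 2). The number of all genes called higher also changed, from 1282 of 15049 in the main fit to 2585 of 14739 with the block on 2 groups. Without homeostasis libraries 1 and 2 it was 1796 of 15715, and without libraries 3 and 4 it was 1621 of 15733. The replicate block over all 12 libraries gave 2 and changed no call of an OAS gene, Pde12 or Abce1.

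Without homeostasis library 4, the log2 fold changes of Oas2 were 6.88 in resolution and 4.15 in inflammation. Pde12 lies near 0 in resolution against homeostasis and changed sign: 0.0031 with RLE scaling, 0.021 with upper-quartile scaling, 0.0033 with DESeq2, 0.010 with voom, 0.0069 with only those groups fitted, 0.17 without homeostasis libraries 1 and 2, 0.00081 with the replicate block, and -0.070 to 0.12 leaving out 1 library. In resolution against inflammation it was -0.032 with the GC and length correction. The cause was not tested. Of 2100 counts of list genes under alternatives, 136 moved by over 1.5 times.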

Other observations

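RNA editing and decay genes were described from a further list. Of 8, 4 were higher and 1 lower in resolution, and 4 were higher and none lower in inflammation, each against homeostasis, where 27.5% and 19% of all genes were higher. Xrn1, the cytoplasmic exonuclease that clears RNA fragments, averaged 46.9 CPM in resolution, 26.7 CPM in inflammation and 13.1 CPM in homeostasis, with log2 fold changes of 1.84 ± 0.23 and 1.03 ± 0.23 against homeostasis. Ttc37, a part of the exosome helper complex, averaged 69.2, 47.2 and 24.5 CPM in resolution, inflammation and homeostasis, and Pnpt1, a mitochondrial ribonuclease, had 1.08 ± 0.14 and 0.92 ± 0.14. Adar, an RNA-editing enzyme that is also in the list of sensors, had 0.95 ± 0.16 and 0.88 ± 0.16. Adarb1, a second editing enzyme, was the lower gene, at -0.83 ± 0.15 in resolution (adjusted p = 0.000162, edgeR).

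The DNA-sensing pathway was described from a separate list. Of its 7 genes, 1 was higher and 3 lower in resolution, and none was higher and 2 lower in inflammation, against homeostasis. Over all genes tested, 27.5% were higher and 25.8% lower in resolution, and 19% higher and 18.3% lower in inflammation, so these counts are near the background. Mb21d1, which encodes cGAS, averaged 3.71 CPM in resolution, 4.13 CPM in inflammation and 8.93 CPM in homeostasis, with log2 fold changes of -1.27 ± 0.21 and -1.11 ± 0.21. Samhd1, which hydrolyses deoxynucleotides, was lower in both (-0.49 ± 0.12 and -0.40 ± 0.12), and Tmem173, which encodes STING, in resolution (-0.48 ± 0.14). Trex1, a DNA exonuclease, was the higher gene (0.49 ± 0.19, adjusted p = 0.0379, edgeR).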
